A study of Mus musculus with 18 samples.

Results

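The 9 Hes and Hey genes, a family that includes classical transcriptional targets of Notch signalling, were followed through H3K27me3 peak lists of mouse headfolds. They were Hes1, Hes2, Hes3, Hes5, Hes6, Hes7, Hey1, Hey2 and Heyl, taken by symbol at their mm10 positions, and 9 of the 21887 protein-coding genes in the gene table. H3K27me3 is a repressive histone modification placed by Polycomb repressive complex 2, and CUT&Tag maps it by directing a transposase to the mark with an antibody and sequencing the cut DNA. The window of a gene is its span with 1 kb added on either side. A library marks the gene if a peak overlaps that window by 1 bp or more, and coverage is the percent of the window under peaks. The design asks whether lack of vitamin C changes the mark in the early head, and whether the genetic background alters this.

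All embryos were Gulo-/-, lacking the last enzyme of vitamin C synthesis, and were collected at embryonic day 8.5. They were of the 129 background (129S6.B6-Gulo-/- in the series' design text) or the B6 background. Those with vitamin C received it at 3.3 g/l in the drinking water and those without received none. Peak lists of 12 libraries were used, 3 for each combination of background and diet, with 2 female and 1 male embryos in each, and each library came from a single headfold whose cells had been dissociated and frozen. The 3 B6 embryos with vitamin C had timed-pregnancy codes with 1 common stem, while in the other groups each embryo had its own stem. If a stem names a litter, these 3 are littermates. Litter then cannot be told apart from diet within B6 or from background with vitamin C. The tests and SDs below count them as separate embryos. The number of peaks was 748 to 4726, their summed length 3.58 to 31.7 Mb and the number of protein-coding genes marked 651 to 3753. Sequencing depth is unknown, so signal was only ranked inside a list. Of the other samples, 4 with IgG and 2 of B6 with the H3K27me3 antibody were not analysed here. A headfold holds neural, mesodermal and surface cells, so a mark in fewer cells and a weaker mark in every cell cannot be told apart. Peaks do not measure expression. As a check of the tissue label, 3 of 6 anterior neural plate genes (Six3, Lhx2 and Rax) reached 10 libraries, with Otx2 in 3, Sox2 in 2 and Hesx1 in 0, and 5 of 6 trunk and tail genes (Hoxc8, Hoxa9, Hoxd10, Cdx2 and T) did, with Tbx6 in 0. The same held for 3 of 4 heart and head mesoderm genes, 1 of 2 surface ectoderm genes and 0 of 2 blood genes, so the peaks alone do not settle the cell types present.

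Notch receptors are cleaved when they bind Delta or Jagged ligands on a neighbouring cell. The freed intracellular part enters the nucleus, joins the DNA-binding protein RBPJ and switches on some of the Hes and Hey genes. The bHLH proteins of the Hes genes among these targets repress proneural genes with Groucho/TLE co-repressors. In the neural tube Hes1, Hes3 and Hes5 keep progenitors dividing. Hes6 opposes Hes1 and favours neuronal differentiation, Hes7 drives the segmentation clock of the presomitic mesoderm, and Hey1, Hey2 and Heyl act mainly in heart and blood vessels.

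Promoter windows of 300 bases, from 250 before to 50 after the transcription start, were held by the RefSeq table for 4 of the 9 genes (assembly GRCm38.p6, for which mm10 is another name). They are shown because a peak lay over those of Hes5, Hes7 and Hey2 in some libraries and over neither window of Hes6 in any. Capitals mark TGGGAA or its complement TTCCCA, the core of the sequence RBPJ is known to bind. The windows are chr4:154960673-154960972 (plus strand) for Hes5, chr11:69120203-69120502 (plus) for Hes7, chr10:30842734-30843033 (minus) for Hey2, and chr1:91413989-91414288 and chr1:91413173-91413472 (minus) for the first and second starts of Hes6.
Hes5: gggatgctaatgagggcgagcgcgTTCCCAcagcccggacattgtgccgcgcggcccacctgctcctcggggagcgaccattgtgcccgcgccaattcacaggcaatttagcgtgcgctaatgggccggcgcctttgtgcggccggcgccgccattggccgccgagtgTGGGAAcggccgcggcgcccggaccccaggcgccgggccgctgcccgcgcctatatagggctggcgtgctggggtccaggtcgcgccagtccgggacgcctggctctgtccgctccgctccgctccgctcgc
Hes7: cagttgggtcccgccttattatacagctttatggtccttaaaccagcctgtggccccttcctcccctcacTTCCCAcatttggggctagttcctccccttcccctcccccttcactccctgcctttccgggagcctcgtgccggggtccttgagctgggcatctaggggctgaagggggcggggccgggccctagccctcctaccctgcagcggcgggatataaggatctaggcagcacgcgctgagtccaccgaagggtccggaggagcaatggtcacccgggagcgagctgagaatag
Hey2: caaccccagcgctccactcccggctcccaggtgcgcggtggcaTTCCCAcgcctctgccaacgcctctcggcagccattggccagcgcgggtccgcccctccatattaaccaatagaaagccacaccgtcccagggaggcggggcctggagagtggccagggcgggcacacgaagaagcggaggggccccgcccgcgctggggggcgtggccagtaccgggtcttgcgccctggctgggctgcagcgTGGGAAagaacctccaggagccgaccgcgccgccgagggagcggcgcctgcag
Hes6 first start: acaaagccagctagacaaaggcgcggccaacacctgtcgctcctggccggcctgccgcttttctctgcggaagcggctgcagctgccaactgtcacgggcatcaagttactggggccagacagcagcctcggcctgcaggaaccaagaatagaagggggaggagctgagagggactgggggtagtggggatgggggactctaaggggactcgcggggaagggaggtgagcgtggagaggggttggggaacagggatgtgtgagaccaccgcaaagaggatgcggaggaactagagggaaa
Hes6 second start: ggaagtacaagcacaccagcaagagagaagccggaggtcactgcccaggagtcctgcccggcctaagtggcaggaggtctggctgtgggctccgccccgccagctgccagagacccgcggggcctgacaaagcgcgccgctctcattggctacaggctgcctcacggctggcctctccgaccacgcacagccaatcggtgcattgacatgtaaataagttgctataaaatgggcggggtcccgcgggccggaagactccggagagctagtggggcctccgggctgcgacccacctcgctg

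The Hes5 window held 2 matches of TGGGAA on either strand, beginning at -226 and -82 from the start, the Hey2 window 2 (at -207 and -3), the Hes7 window 1 (at -180) and the Hes6 windows 0. Each of the 5 matches was also a match of the longer GTGGGAA, which contains it. Of 32851 promoter windows of this length in the table, 25.6% held TGGGAA, 6.38% held GTGGGAA and 0.256% held 2 or more GTGGGAA. The N box CACNAG, a site that Hes factors bind, was found on either strand 2 times in the second Hes6 window, 1 time in that of Hes7 and 0 times in the others, against 42.5% of all windows with at least 1. The Hes5 window held 41 CpG dinucleotides, more than 96.5% of all windows, and that of Hey2 held 29. The Hes6 windows held 14 and 21 and that of Hes7 held 14, against a median of 7 over the table. For comparison, the median was 18 in windows of protein-coding genes marked in at least 10 libraries and 11 in those of genes marked in 0. The windows with the fewest CpG here thus belong to the often marked Hes7 and the unmarked Hes6. A match of letters is a description and not a bound site.

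The mark divided the family. Hes2, Hes3 and Heyl had peaks in 12, 10 and 11 libraries. At the bar of 10 or more libraries that is 3 of 9 genes against 5.93% of protein-coding genes. Hes7 was marked in 9 and Hes5 in 7, with 3.97% of genes marked in 7 to 9 libraries. Hey1 was marked in 3 and Hey2 in 1, against 7.11% of genes in 1 to 3. Hes1 and Hes6 were marked in 0, the state of 79.8% of protein-coding genes. With the 2 libraries of the shortest peaks (median under 2 kb) left out, the bar became at most 2 of the remaining 10 libraries lacking a peak. Hes7 then met it along with Hes2, Hes3 and Heyl, 4 genes in all. The share of protein-coding genes meeting that bar was not computed. Members in a shared neighbourhood are few: Hes2, Hes3, Hes5 and Heyl lie on chromosome 4, with Hes2 and Hes3 123 kb apart, but no peak joined any pair of them.

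**Figure D1:**
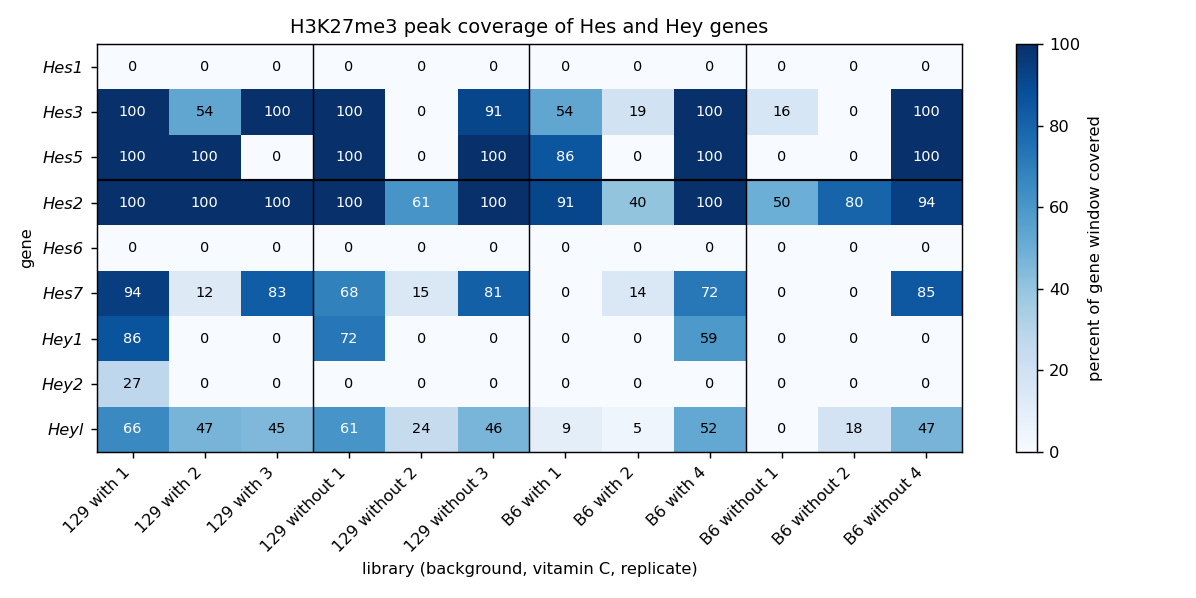
Percent of each gene window (gene span plus 1 kb at each end) under H3K27me3 peaks, with 1 row per gene and 1 column per library; the line separates the neural progenitor genes Hes1, Hes3 and Hes5 from the others. Hes2 has a value of 40.2 or more in all 12 libraries, and Hes1 and Hes6 are at 0 throughout.

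Among the neural progenitor genes the 3 members had 3 different states. Hes1 (chromosome 16, 30065357 to 30067796), an effector of Notch in neural progenitors and other cells, had no peak in any library. The nearest peak lay 50.9 to 52.5 kb above the gene in 4 libraries and at least 238 kb away in the other 8. Hes1 thus stood in unmarked surroundings in these lists, with coverage of 0 in every embryo of either background and diet.

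Hes3 (chromosome 4, 152285250 to 152291911), which acts with Hes1 and Hes5 at the midbrain-hindbrain boundary, was marked in 10 libraries. Its coverage was 100, 53.5 and 100% in 129 with vitamin C and 100, 0 and 91.2% in 129 without. In B6 it was 53.5, 19.3 and 100% with and 15.8, 0 and 100% without vitamin C. Full coverage thus occurred in all 4 groups, and the groups overlapped. The interval from 152286560 to 152287600, 1.31 to 2.35 kb inside the lower end of the gene, was under a peak in all 10 of these libraries. The widest peak in a library measured 1.37 to 17.7 kb (median 12.8 kb, counting the widest where a library had 2). Peaks of all libraries merged to 18 kb that also reached Gpr153. In 129 without vitamin C replicate 2, called unmarked, a peak of 1.9 kb ended 2.35 kb below the gene, and a window of 2.5 kb raised the count to 11. In B6 without vitamin C replicate 2 the nearest peak was 123 kb away.

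Hes5 (chromosome 4, 154960626 to 154962372), a Notch effector of neural tube progenitors, was covered by 85.5% or more in the 7 libraries that marked it. Coverage was 100, 100 and 0% in 129 with vitamin C and 100, 0 and 100% in 129 without. It was 85.5, 0 and 100% in B6 with and 0, 0 and 100% in B6 without vitamin C. Each of the 7 peaks spanned the whole promoter window printed above, and they shared 3.2 kb of the gene window. Their widths were 4.32 to 7.56 kb in 6 libraries and 17.2 kb in 129 with vitamin C replicate 1, where the peak began at -13.1 kb from the lower end of the gene. In 129 with vitamin C replicate 3, called unmarked, a peak of 5.34 kb ended 5.19 kb below the gene. In the other 4 unmarked libraries the nearest peak was 80.3 to 318 kb away.

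Hes6 (chromosome 1, 91411483 to 91414038), the member that favours neuronal differentiation, was unmarked in all 12 libraries, as Hes1 was. Its nearest peak lay 63.4 to 66.4 kb below the gene in 10 libraries and 1439 and 1484 kb away in 129 without vitamin C replicate 2 and B6 without vitamin C replicate 2.

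Hes2 (chromosome 4, 152158867 to 152162469) was the only member marked in all 12 libraries, against 2.18% of protein-coding genes. Its coverage was 100% in each 129 library with vitamin C and 100, 60.6 and 100% in those without. In B6 it was 91.1, 40.2 and 100% with and 49.9, 79.7 and 93.8% without vitamin C. The low values thus fell in 129 without vitamin C replicate 2 and in B6, and within each background the diets overlapped. A stretch of 0.351 kb (152159766 to 152160116), 0.899 to 1.25 kb inside the lower end of the gene, was under a peak in every library. Around it the peaks grew from 2.79 kb in B6 without vitamin C replicate 1 to 53.4 kb in 129 without vitamin C replicate 3. That widest peak began at -45.5 kb from the lower end of the gene, over the neighbouring genes of a merged region of 59.1 kb, Espn, Tnfrsf25 and Plekhg5.

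Hes7 (chromosome 11, 69118906 to 69124054) was marked in 6 of 6 libraries of 129 and 3 of 6 of B6. Coverage was 94.5, 12.5 and 82.8% in 129 with vitamin C and 68.4, 14.7 and 81.4% in 129 without. In B6 it was 0, 14.5 and 72% with and 0, 0 and 84.7% without vitamin C. Each group thus held libraries with little or no coverage beside 1 or more with 68.4% or more. The gene is on the plus strand, and the start of its promoter entry lies 1.55 kb inside the span. In all 6 libraries of 129 the peak began at -8.61 to -7.88 kb from the lower end of the span, on the upstream side. In 129 with vitamin C replicate 2 and 129 without vitamin C replicate 2 that peak ended at -0.109 and 0.052 kb from the lower end of the span, short of the promoter window. A peak covered the promoter window in 6 of the 9 marked libraries, and in B6 with vitamin C replicate 2 a peak of 1.04 kb lay beyond it. With no flank added, Hes7 was marked in 8 libraries.

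**Figure D2:**
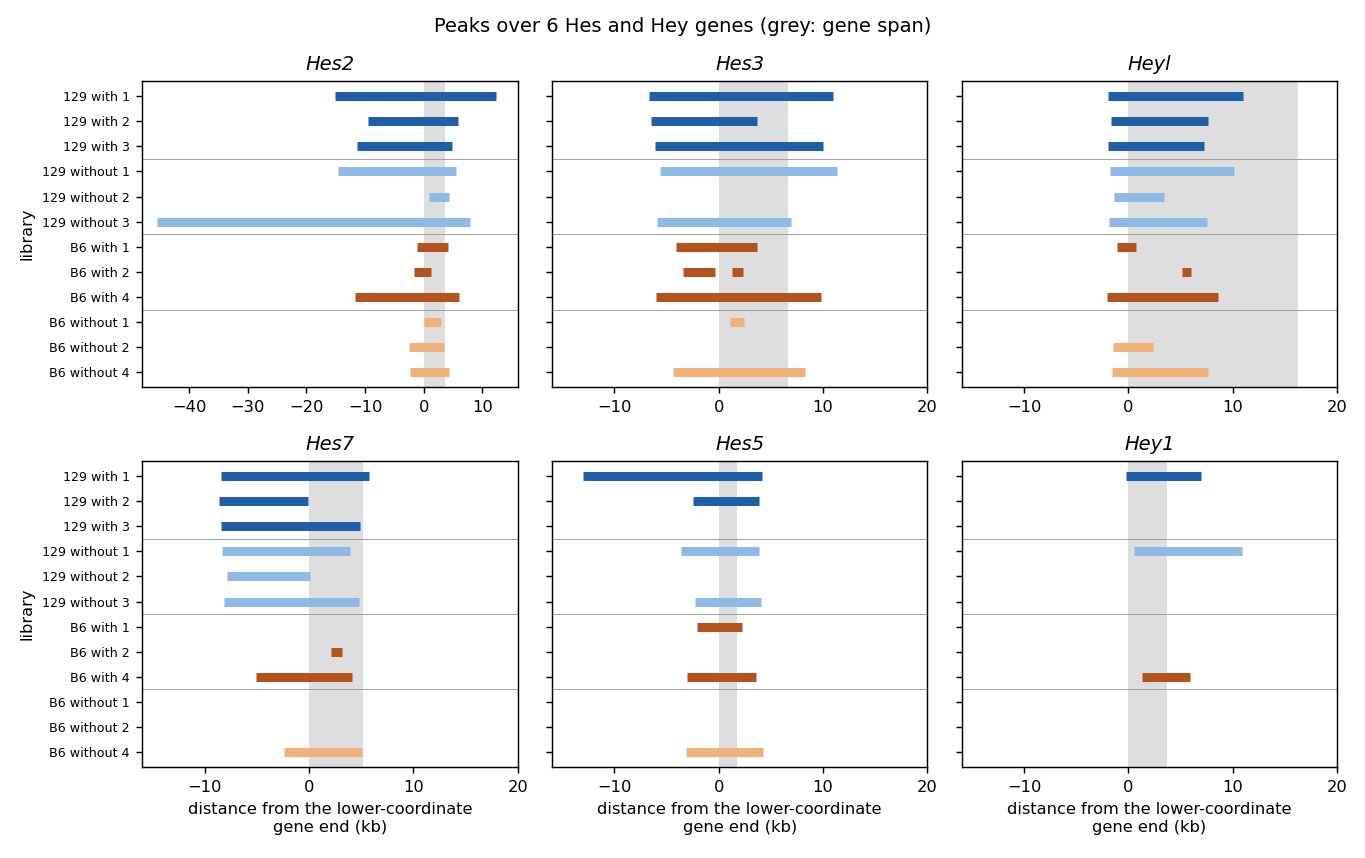
Position of each H3K27me3 peak over 6 genes, in kb from the lower-coordinate end of the gene, with 1 line per library coloured by group and the gene span in grey (the Hes2 panel has a wider axis). Peaks over Hes2 share 0.351 kb in all 12 libraries, while the 129 peaks at Hes7 start at -8.61 to -7.88 kb.

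Of the Hey genes, Heyl was often marked and the cardiac genes Hey1 and Hey2 seldom. Heyl (chromosome 4, 123233556 to 123249870), which is also a Notch target in vascular smooth muscle, had coverage of 65.5, 47 and 45.2% in 129 with and 60.6, 24.3 and 46.5% in 129 without vitamin C. In B6 the values were 9.48, 4.53 and 52.5% with and 0, 18.3 and 47.2% without. The B6 values were thus spread from 0 to 52.5%, against 24.3 to 65.5% in 129. The peaks lay over the lower end of the gene in 10 libraries, with 1.74 kb of the window in common. In B6 with vitamin C replicate 2 a peak of 0.83 kb lay 5.18 to 6.01 kb inside it. A minimum coverage of 10% of the window left Heyl marked in 9 libraries and changed the count of no other member.

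Hey1 (chromosome 3, 8663359 to 8667038) was marked in 129 with vitamin C replicate 1 (86% covered), 129 without vitamin C replicate 1 (72.3%) and B6 with vitamin C replicate 4 (59.1%). It was at 0 in the other 9 libraries. Hey2 (chromosome 10, 30832359 to 30842783), needed for ventricle formation, was marked in 129 with vitamin C replicate 1 alone. There a peak of 7.35 kb covered 27.4% of the window, including the whole promoter window printed above. These libraries were those with the most covered genome, 31.7 Mb in 129 with vitamin C replicate 1, 27 Mb in B6 with vitamin C replicate 4 and 26.2 Mb in 129 without vitamin C replicate 1.

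Calls were largely nested. The 7 libraries that marked Hes5 all marked Hes2, Hes3 and Heyl, and the 3 that marked Hey1 marked Hes2, Hes3, Hes5, Hes7 and Heyl too. All 9 that marked Hes7 marked Hes2 and Heyl. The number of members marked was 2 in each of the lists covering 3.58 and 4.15 Mb, both from B6 without vitamin C. It was 3 to 5 in the lists of 6.97 to 25.9 Mb, 6 in those of 26.2 and 27 Mb and 7 in that of 31.7 Mb. The part of list coverage in the differences between groups given below was not tested. The equal lists reported there hold each library to 748 peaks, which equalises the number of peaks and not the genome covered. Median peak width in the full lists ran from 1.32 kb in B6 without vitamin C replicate 1 to 8.45 kb in 129 with vitamin C replicate 1.

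**Figure D3:**
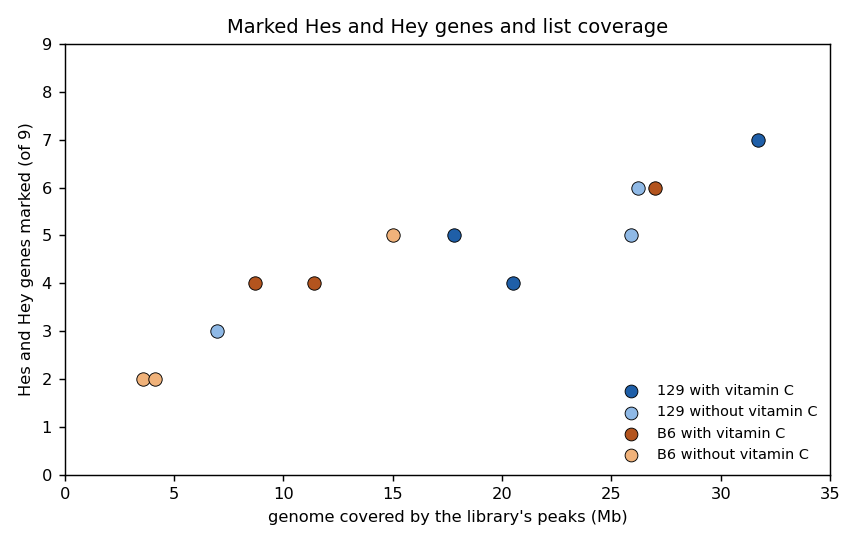
Number of the 9 Hes and Hey genes marked in each library against the genome covered by that library's peaks (Mb), coloured by background and diet. The lists with the least coverage (3.58 and 4.15 Mb) mark 2 members and the list with the most (31.7 Mb) marks 7.

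The strength of the peaks separated genes that a count of libraries left close together. Peaks were ranked by the authors' maximum signal inside their own list, a percentile of 100 being the strongest. The signal is in whole numbers, and peaks of equal maximum share an average rank, so the percentiles are coarser than their digits. In B6 without vitamin C replicate 2 the peaks at Hes2 and Heyl were both at 22.9. Each percentile belongs to the whole peak, which can reach far beyond the gene (up to 53.4 kb wide at Hes2). The maximum need not lie over the gene, and its position was not used. Peaks at Hes2 lay at percentiles of 22.9 to 96.4 (median 79.3) and those at Hes3 at 10.4 to 83.2 (63.4). Peaks at Hes7 were at 2.16 to 75.7 (33.3) and at Heyl at 7.85 to 55.1 (26.8). By this measure Hes5 stands lowest of the genes marked in over 3 libraries, with percentiles of 1.13 to 20.3 (median 11.3). In the 7 libraries with a Hes5 peak it ranked below the peaks at Hes2, Hes3 and Heyl in 7 of 7, and below that at Hes7 in 6 of the 6 that had both. The Hey1 peaks were at 4.14, 6.47 and 20.3, and the Hey2 peak at 1.75. Ranked by total signal instead, the Hes5 peaks lay at percentiles of 14.9 to 69.2 (median 36.9) and those at Heyl at 1.88 to 77.1 (64.3). By that measure Hes5 ranked above Heyl in 129 with vitamin C replicate 1 (69.2 against 67.9). It did so too in B6 with vitamin C replicate 1 (27.4 against 1.88), and ranked below Heyl in the others. When peaks below their list's median maximum signal were dropped, Hes5, Hey1 and Hey2 were marked in 0 libraries, Heyl in 2, Hes7 in 4, Hes3 in 7 and Hes2 in 11. When each list was held to its 748 peaks of largest total signal, Hes5, Hey1 and Hey2 were again at 0, with Heyl at 4, Hes7 at 5, Hes3 at 9 and Hes2 at 12. Under either setting 1 member, Hes2, was marked in at least 10 libraries, against 2.78% and 2.15% of protein-coding genes.

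**Figure D4:**
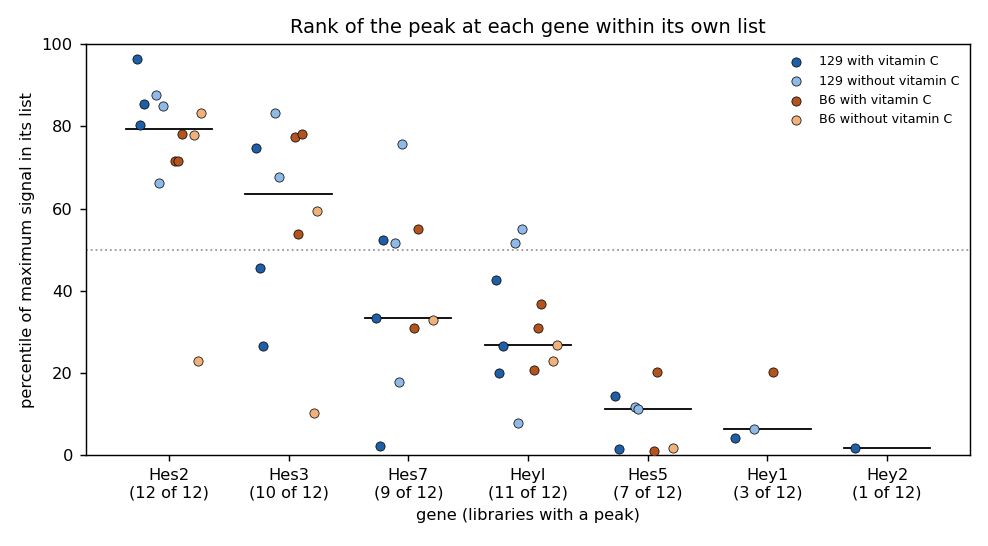
Percentile of maximum signal, within its own list, of the widest peak at each gene, with 1 point per library and a bar at the median. The Hes5 points lie between 1.13 and 20.3 and 11 of the 12 Hes2 points above 60.

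The contrast of neural progenitor genes with the other members gave no common direction across libraries. Hes1, Hes3 and Hes5 had a mean coverage of 39.4% and the other 6 genes of 30.6%, a difference of 8.76 ± 17.4 points (SD, n = 12 libraries). The progenitor genes were higher in 7 libraries and lower in 5. The difference was 8.12 ± 15 points in 129 with and 8.54 ± 22.3 in 129 without vitamin C (SD, n = 3). In B6 it was 15.2 ± 16.9 with and 3.22 ± 23.3 without. The spread between libraries exceeded the mean difference in every group, and the spread between genes of 1 class, from Hes1 at 0 to Hes3 and from Hes6 at 0 to Hes2, ran through both classes. The sign depended on the grouping and on weak peaks. With Hes6 counted as a progenitor gene the difference was -7.22 points, with peaks at or above the list median it was -3.04 and with equal lists -1.63. Gene windows were 3.75 to 8.66 kb long in the progenitor genes and 4.56 to 18.3 kb in the others. A peak of a given width covers a larger percent of a short window, and the means were not adjusted for this. Since members are not replicates, no test was made.

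Lack of vitamin C was not accompanied by a called change at any member. Of 3460 protein-coding genes covered in at least 2 libraries, 0 (0%) had an adjusted p (Benjamini-Hochberg) below 0.05 when diet labels were exchanged within background (exact permutation). Before adjustment 71 (2.05%) were below 0.05, none of them a member. With a smallest possible p of 0.005, at least 347 genes would have to reach it for any to pass, and 6 did. The 6 members covered in at least 2 libraries all had lower means without vitamin C, as did 85% of genes tested. Their median difference was -10 points of coverage against -2.76 over all genes tested. These are absolute points, and a gene with little coverage cannot fall by as much as a well covered one. Genes of like coverage were not compared, so the 2 medians do not show a larger loss at the members.

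The mean difference was largest at Hes3, with 84.5 ± 26.8% with and 63.7 ± 55.4% without vitamin C in 129 and 57.6 ± 40.5% and 38.6 ± 53.8% in B6 (SD, n = 3). That is -19.9 points (exact permutation p = 0.39, adjusted p = 0.8), but -3.95 when 129 without vitamin C replicate 2 was left out and -35.2 when B6 without vitamin C replicate 4 was. Without 129 with vitamin C replicate 3 the difference was larger at Hes5 (-30.9) than at Hes3 (-16). Hes5 was at 66.7 ± 57.7% with either diet in 129 and at 61.8 ± 54% with and 33.3 ± 57.7% without vitamin C in B6 (-14.2 points, exact permutation p = 1, adjusted p = 1). For Hey1 the difference was -12.1 points, for Hes2 -7.87, for Heyl -4.56 and for Hes7 -4.52 (exact permutation p of 0.6 to 0.74, adjusted p of 0.895 to 0.956). These differences are smaller than the spread between embryos, and several turned with a single embryo. The Hes5 difference was 2.42 points without 129 without vitamin C replicate 2, and that of Hey1 was 2.19 without 129 with vitamin C replicate 1. The Heyl difference was 3.02, 0.322 and 0.892 points without B6 with vitamin C replicate 4, 129 without vitamin C replicate 2 and B6 without vitamin C replicate 1. That of Hes7 turned, to 0.36 to 6.28 points, on omission of any of 6 libraries: 129 with vitamin C replicates 1 and 3, 129 without vitamin C replicate 2, B6 with vitamin C replicate 4 and B6 without vitamin C replicates 1 and 2. For Hes2 it was 2.36 points with no flank and -17.1 to -1.31 over omissions of 1 library. With lists of equal peak number the diet difference was -20.5 points at Hes3, -7.87 at Hes2, -2.22 at Heyl and -2.13 at Hes7 (exact permutation, lowest adjusted p = 0.901).

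Within a background, 3 embryos against 3 cannot give a p below 0.1. In 129 the diets did not overlap at 0 members, against 3.99% of genes tested with lower and 0.0289% with higher coverage without vitamin C. In B6 they did not overlap at 0 members, against 3.32% lower and 0% higher. Without 129 with vitamin C replicate 2 the diets parted at Hes7 in 129. Without B6 without vitamin C replicate 4 they parted at Hes3 in B6, so the overlap there rests on 1 library. Smaller groups part more easily, and the share of all genes tested that parted on these omissions was not computed. The partings thus describe single genes only. The difference between the diet effects of 129 and B6 passed at 0 of 3460 genes (exact permutation, adjusted p below 0.05), and 3 genes (0.0867%) had an unadjusted p below 0.05, none of them a member.

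Coverage in B6 against 129 was lower at all 6 members tested, and at 90.8% of genes tested, but none passed the test. With background labels exchanged within diet (exact permutation), 0 of 3460 genes (0%) passed at the adjusted threshold of 0.05. Before adjustment 584 (16.9%) were below 0.05, none of them a member. The smallest possible p of 0.005 was reached by 69 genes where 347 are needed. The library names in the sample descriptions carry lower numbers in 129 than in B6, so background and library order cannot be told apart, and the lists covered 3.58 to 27 Mb in B6 and 6.97 to 31.7 Mb in 129.

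Heyl came nearest to the threshold among members, at 22% in B6 and 48.2% in 129 on average, a difference of -26.2 points (exact permutation p = 0.065, adjusted p = 0.27). With vitamin C its values were 22.2 ± 26.4% in B6 and 52.6 ± 11.3% in 129, and without it 21.8 ± 23.8% and 43.8 ± 18.3% (SD, n = 3). Hes7 had the largest difference, 28.5% in B6 and 59% in 129 (-30.5 points, exact permutation p = 0.165, adjusted p = 0.355). Lists of equal peak number, which were not equalised for genome covered, marked Hes7 in 5 libraries of 129 and in 0 of B6. That is a difference of -57 points (exact permutation p = 0.02, adjusted p = 0.181). With such lists the difference was -30.7 points at Hes3, -22.4 at Heyl and -17.6 at Hes2 (exact permutation p of 0.2 to 0.41, adjusted p of 0.334 to 0.536). With the full lists Hes3 differed by -26 points, Hes5 by -19.1, Hes2 by -17.6 and Hey1 by -16.5 (exact permutation p of 0.22 to 0.59, adjusted p of 0.379 to 0.691). Omission of 1 library turned none of the 6 differences but moved them widely. Hey1 was at -2.19 without 129 with vitamin C replicate 1, and Hes5 ranged from -35.8 to -3.63, Hes3 from -42 to -16.4 and Hes2 from -24.2 to -8.41, each least negative without B6 with vitamin C replicate 2. Hes7 ranged from -44.6 to -22.7 and Heyl from -33.8 to -20.7. Without the 2 libraries of short peaks, both of B6, the difference was 4.7 points for Hes5, -2.26 for Hes2, -10.7 for Hes3, -11.6 for Hey1, -16.3 for Heyl and -19.9 for Hes7. At each diet 0 members had groups that did not overlap, against 13.1% of genes tested with lower and 0.462% with higher coverage in B6 with vitamin C, and 6.56% and 0.0578% without.

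Elsewhere in the pathway, counts are to be read against the 5.93% of protein-coding genes marked in 10 or more libraries and the 79.8% marked in 0. Of 7 ligand genes, 3 reached 10 libraries: Dll4, the ligand of endothelial cells, in 12, and the non-canonical ligands Dlk1 and Dlk2 in 11 each. Dll1 and Dll3, ligands of the neural tube and presomitic mesoderm, were each marked in 8 libraries and Jag2 in 7, while Jag1 was marked in 0. The receptor genes Notch1, Notch2, Notch3 and Notch4 were marked in 0 of 12 libraries, as most genes were. Of 14 genes for receptor processing and signal sending, 11 were marked in 0, Mib2 and Neurl1a in 8 each and the glycosyltransferase gene Lfng in 1. Of 11 nuclear effectors and co-repressors, 10 were marked in 0, Rbpj and Maml1 among them, and Maml3 in 2, with at most 0.211% of its window covered. Of 9 feedback and inhibitor genes, the E3 ligase gene Dtx1 was marked in 12, the feedback inhibitor gene Nrarp in 3 and the other 7 in 0.

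Among 3 genes of related bHLH repressors, Helt was marked in 11 libraries, Bhlhe40 in 10 and Bhlhe41 in 4. Of the proneural genes that Hes factors repress, 4 are given here. Neurog1 and Neurog3 were marked in 12 libraries and Neurog2 and Atoh1 in 11, so that 4 of 4 reached 10 libraries, as against 3 of 9 Hes and Hey genes and 5.93% of protein-coding genes. Of the 48 genes of the pathway lists other than the proneural one, 6 reached 10 libraries and 33 had no peak (79.8% of protein-coding genes had none), and 0 of the 14 covered in at least 2 libraries passed the test for diet or background (exact permutation, adjusted over 3460 genes).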

How the data were processed

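H3K27me3 CUT&Tag peak lists of 12 mouse headfold libraries were used. Per the submitters' processing notes the authors used cutadapt, Bowtie2, Picard and SEACR with the build mm10; for versions, settings and the use of IgG controls, the sources used here give nothing. The deposited lists are per library, with the authors' total and maximum signal of each peak in whole numbers on no common scale, so signal was used for ranks and filters inside a list alone. Depth is unknown. The labels name separate embryos, numbered in accession order.

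Gene spans came from RefSeq genes of GRCm38.p6, with 1 kb added at each end. Coverage of 21887 protein-coding genes was computed with NumPy 2.4.6 and pandas 2.3.3 under Python 3.11.15, and plotted with Matplotlib 3.10.9. Genes covered in at least 2 libraries were tested by exact permutation (400 relabellings, two-sided, 20 within a background) with Benjamini-Hochberg adjustment over all of them, at a threshold of 0.05. The code was tested on simulated data. Coordinates are 1-based.

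All 9 members are named, pathway genes by list and role (1 listed gene is not reported here), and like genes by smallest mean difference in coverage. Members and lists were chosen with earlier results of these data known. Alternatives were flanks of 0 and 2.5 kb, peaks of at least 1 kb or at or above the list's median maximum signal, equal lists of 748 peaks, peaks under 5 kb apart joined, a minimum of 10% coverage, presence in place of coverage, strata by sex, and omission of libraries.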

Additional observations from a re-analysis of the deposited data

How the results depend on the processing

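No member passed the adjusted threshold under any alternative run, in 250 recomputed tests of diet or background (lowest adjusted p = 0.134, exact permutation, for Heyl without B6 with vitamin C replicate 4), and 232 kept their direction. With presence in place of coverage, 3 were at 0 (Hes2 for diet, Hes2 and Hes3 for background). The 15 that turned were Hes2 for diet with no flank (2.36 points), Hes3 (3.07) and Heyl (17.9) for diet with peaks at or above the list's median maximum signal, Hes5 for background without the 2 libraries of short peaks (4.7), and 11 omissions of 1 library. Over the 12 omissions the diet difference ranged from -35.2 to -3.95 points for Hes3, -30.9 to 2.42 for Hes5, -18.6 to 6.28 for Hes7, -24.2 to 2.19 for Hey1 and -10.9 to 3.02 for Heyl. The number of members lacking a peak in at most 2 libraries was 3 to 4 over omissions, for which no share over all genes was computed. It was 1 both with peaks at or above the median maximum signal and with equal lists. The progenitor contrast of 8.76 points was -3.04 with the former, -1.63 with the latter, -7.22 with Hes6 as a progenitor gene and 6.87 to 11.1 over omissions. Members whose diets did not overlap numbered 0 to 1 over omissions in 129 and 0 to 1 in B6, with no share over all genes computed. The cause of these shifts was not tested. No paired analysis was possible because no timed-pregnancy stem was shared between diets or backgrounds and no other label pairs the embryos. Depth is unknown, so an unmarked gene is one without a called peak.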

Other observations

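For each member marked in 3 to 11 libraries, the protein-coding genes most like it in coverage, over 1 Mb away, were taken by the smallest mean absolute difference in percent covered over the 12 libraries. The lists share depth and peak width within a library, so likeness is a description. Nearest to Hes3 were Ltb4r1 (7.19 points), Cd14 (7.21) and Cyp26c1, a retinoic acid degrading enzyme gene (7.37), all marked in the same 10 libraries as Hes3. Nearest to Hes5 were Cldn9 (8.54 points), Ccdc177 (9.16) and the Wnt receptor gene Fzd10 (9.57), alike in presence in 11, 12 and 11 of 12 libraries. Nearest to Hes7 were Nr2f1, an orphan nuclear receptor gene of the developing brain (8.59 points), Slitrk1 (8.79) and 1700003F12Rik (8.99), alike in presence in 10, 11 and 9. Nearest to Hey1 were Pcsk1n (1.77 points), Prnd (2.12) and Fbxl15 (3.28), alike in presence in 12, 12 and 7, with Fbxl15 marked in 8 libraries against 3 for Hey1. Nearest to Heyl were Col8a2, a collagen chain gene (7.14 points), Ncan, a proteoglycan gene of the brain (7.48), and the homeobox gene Dmbx1 (7.61), each marked in 12 libraries.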
